A study of Mus musculus with 4 samples.

Results

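The genes described here are the cytosolic phospholipases A2 of group IV (*Pla2g4a*, *Pla2g4b*, *Pla2g4c*, *Pla2g4d*, *Pla2g4e* and *Pla2g4f*) and 4 further phospholipases A2 outside the classical secreted family (*Pla2g6*, *Pla2g7*, *Pla2g15* and *Pla2g16*). They were chosen by name, from the gene name that the array files give for each probe, and make up 10 of the 22368 genes that could be named. They are measured by 11 of 39423 probes, with a pair of probes for *Pla2g7* and 1 probe for each other gene. In mouse colon, 7 of the 10 genes were well above background on all 4 arrays, 9 on at least 1 array, and *Pla2g4e* on none. Of all 22368 genes, 14799 were well above background on all 4 arrays and 17887 on at least 1. After azoxymethane (AOM), the array labeled *Pla2g3*-/- had a higher *Pla2g4f* level and lower *Pla2g6*, *Pla2g7* and *Pla2g15* levels than the array labeled *Pla2g3*+/+. These differences were past 2-fold, as were those of 28.0% of all genes, and those of *Pla2g6* and *Pla2g15* fell under 2-fold with another background correction. With vehicle, only *Pla2g4c* differed by more than 2-fold, where 3.24% of all genes did, and this too depended on the processing.

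The data are 4 one-color arrays on 1 slide, each hybridized with labeled RNA (27.7 ng) pooled from the colons of male mice aged 42 weeks on the B6.129 (n3) background. The groups are *Pla2g3*+/+ and *Pla2g3*-/- mice given saline as the vehicle, and *Pla2g3*+/+ and *Pla2g3*-/- mice given AOM, a colon carcinogen, at 10 mg/kg weekly for 6 weeks and killed 28 weeks after the last injection. Each pool held 3 to 5 mice, and the deposited design calls the AOM tissue colorectal cancer. As no group has a second array, the differences have no replicate check and no test was made. The mice carry a mixture of C57BL/6 and 129 alleles, so alleles of either strain may differ between pools, and in whole tissue fewer cells of a type and less RNA per cell cannot be told apart.

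The comparisons ask how genotype changes these genes with each treatment and how AOM changes them in each genotype. Levels are background-subtracted signals given as a percent of the 75th percentile of the same array, and differences are log2 ratios of these scaled levels. The error after a log2 ratio is the one that the Feature Extraction software assigns to the spots, which covers the array only and not the mice. Where a probe was called above background on just 1 of the compared arrays, the fold is a bound, written "at least". The 75th percentile itself was a signal of 646 and 649.8 with vehicle, for *Pla2g3*+/+ and *Pla2g3*-/-, and of 1309 and 1169 after AOM. The 4 ratios share arrays, and any 3 of them fix the other, so they are not independent of each other.

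*Pla2g3*, the targeted gene, did not follow its labels. On its brightest probe its signal was 343 and 426 with vehicle and 304 and 1632 after AOM, for the arrays labeled *Pla2g3*+/+ and *Pla2g3*-/-. It was 1.23-fold and 6.01-fold higher on the array labeled *Pla2g3*-/-, and every direction below follows those labels. Whether its probes lie in the deleted part of the gene is not given in the sources used here, and a probe outside it would not check the genotype. Whether the arrays carry the genotypes of their labels was not tested, and exchanged genotype labels would turn the sign of every *Pla2g3*-/- over *Pla2g3*+/+ ratio. The tissue also differed in make-up between arrays. The summed level of 10 smooth muscle markers, in multiples of the 75th percentile, was 522 and 548 with vehicle but 31.7 and 502 after AOM, and that of 9 colonocyte markers was 432, 482, 86.5 and 331. The share of these differences in the results below was not tested.

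Phospholipases A2 release a fatty acid from the middle position of a membrane phospholipid and leave a lysophospholipid. Where the fatty acid is arachidonic acid, cyclooxygenases and lipoxygenases convert it to prostaglandins and leukotrienes, which act in intestinal inflammation and tumor growth. Group IV enzymes are cytosolic and mostly driven by calcium through a C2 domain, whereas *Pla2g6* and *Pla2g4c* need no calcium. *Pla2g7* degrades platelet-activating factor (PAF) and oxidized phospholipids and, despite its place in this set, is a secreted plasma enzyme made largely by macrophages. *Pla2g15* works in the lysosome, and *Pla2g16*, now named *Plaat3*, is a membrane-bound enzyme abundant in fat tissue.

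The probes that carry the 3 widest differences are shown first, 5′ to 3′ as designed, because each probe's value rests on this stretch of its transcript. For *Pla2g7* this is the upstream probe, whereas the 3′ probe, described below, stands for the gene. The *Pla2g4c* probe lies at chr7:13941578-13941637 (+ strand), the *Pla2g4f* probe at chr2:120126274-120126333 (− strand) and the upstream *Pla2g7* probe at chr17:43731745-43731804 (+ strand), all on mm9. They begin at positions 1681, 2484 and 615 of their RefSeq transcripts.
*Pla2g4c*: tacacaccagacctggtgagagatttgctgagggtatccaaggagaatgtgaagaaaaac
*Pla2g4f*: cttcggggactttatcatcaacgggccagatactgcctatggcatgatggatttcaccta
*Pla2g7* upstream: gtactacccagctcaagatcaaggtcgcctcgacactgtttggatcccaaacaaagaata
No other probe of the array shared a run of 20 bases with any of these 3 probes.

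Of the 11 probes, those of *Pla2g4b* and *Pla2g16* did share such a run with probes of other genes, which was 18.2% of the member probes against 7.17% of all probes. The shared runs are shown because they bear on what these spots measure.
*Pla2g4b*, shared with *Apopt1* and *Prorsd1*: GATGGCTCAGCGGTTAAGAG
*Pla2g16*, shared with *AK135063*: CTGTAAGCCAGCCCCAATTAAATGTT
*Pla2g16*, shared with *Gm4858*: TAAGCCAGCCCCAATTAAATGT
The *Pla2g4b* run is 20 bases long, and the *Pla2g16* runs are 26 and 22. Results for both genes are given with the values of these other probes beside them.

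By number, 1 of 8 genes with a value was past 2-fold for *Pla2g3*-/- over *Pla2g3*+/+ with vehicle, where 3.24% of 16393 genes were. It was lower, like 1.32% of all genes, and 0 were higher, against 1.92%. After AOM 4 of 9 were past 2-fold, where 28.0% of 17199 genes were, with 1 higher (15.1% of all genes) and 3 lower (12.9%). For AOM over vehicle in *Pla2g3*+/+ mice, 3 of 8 were past 2-fold against 37.5% of 17280 genes, with 2 higher (15.1%) and 1 lower (22.4%). In *Pla2g3*-/- mice 3 of 8 were, against 24.8% of 16518 genes, with 1 higher (9.65%) and 2 lower (15.1%). The median log2 ratio of the set was 0.06 with vehicle and 0.20 after AOM for *Pla2g3*-/- over *Pla2g3*+/+, and −0.57 in *Pla2g3*+/+ and −0.33 in *Pla2g3*-/- mice for AOM over vehicle. Over all genes these medians were −0.02, 0.03, −0.17 and −0.08. With 8 or 9 genes, no share was read as apart from the background.

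*Pla2g4a* encodes the arachidonate-selective cytosolic enzyme that supplies cyclooxygenases. Its level was 250.5% of the 75th percentile in *Pla2g3*+/+ and 277% in *Pla2g3*-/- with vehicle, and 166% and 253% after AOM. The array of AOM-treated *Pla2g3*+/+ mice was thus the lowest and the others lay close together. With vehicle the log2 ratio of *Pla2g3*-/- over *Pla2g3*+/+ was 0.14 ± 0.20, within the error of the spots. After AOM it was 0.60 ± 0.20, a 1.52-fold difference, and 24.0% of all genes were at least as far in that direction. In *Pla2g3*+/+ mice the log2 ratio of AOM over vehicle was −0.59 after scaling but 0.43 without it, so the direction depends on the scaling. In *Pla2g3*-/- mice it was −0.13 after scaling, and 0.72 without scaling and 0.03 after quantile normalization.

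**Figure D1:**
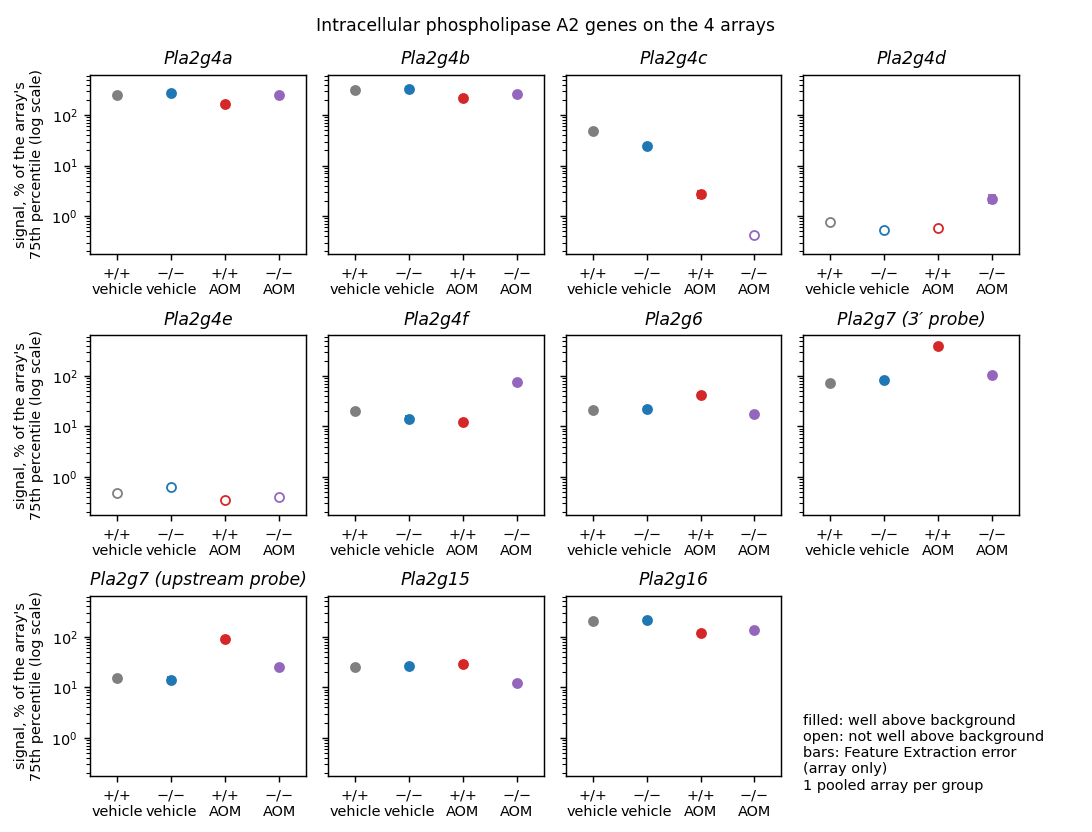
Level of each of the 11 probes on the 4 arrays, as signal in percent of the 75th percentile of the array on a log axis, with 1 pooled array per group. Filled points were well above background, open points were not, and bars (mostly smaller than the points) are the Feature Extraction error. *Pla2g4f* stood highest on the *Pla2g3*-/- AOM array at 75.1%, both *Pla2g7* probes stood highest on the *Pla2g3*+/+ AOM array, and *Pla2g4c* ran from 49.2% on the *Pla2g3*+/+ vehicle array to below background on the *Pla2g3*-/- AOM array.

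*Pla2g4b* encodes another calcium-dependent cytosolic enzyme. Its probe gave 317% and 329% with vehicle and 217% and 256% after AOM. Both AOM arrays were below both vehicle arrays after scaling, but the widest ratio, AOM over vehicle in *Pla2g3*+/+ mice, was −0.54 after scaling and 0.48 without it. The ratios of *Pla2g3*-/- over *Pla2g3*+/+ were 0.06 ± 0.20 with vehicle and 0.24 ± 0.20 after AOM. The *Apopt1* probe, which shares 20 bases with it, gave 0.00 and 0.22 in these comparisons and −0.56 for AOM over vehicle in *Pla2g3*+/+ mice. The *Prorsd1* probe gave 0.13, 0.24 and −0.58. These 3 probes therefore moved by nearly the same amounts, and whether they measure a common sequence was not tested.

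*Pla2g4c*, the calcium-independent group IV enzyme, had the widest range of the set. Its level was 49.2% in *Pla2g3*+/+ and 24.3% in *Pla2g3*-/- with vehicle, 2.68% in *Pla2g3*+/+ after AOM, and 0.424% in *Pla2g3*-/- after AOM, where it was not well above background. Both AOM arrays were therefore far below both vehicle arrays. In *Pla2g3*+/+ mice it was 18.3-fold lower after AOM (log2 ratio −4.20 ± 0.27), and 1.23% of all genes were at least as far down. That ratio was −2.04 with normexp background correction and −3.18 without scaling. In *Pla2g3*-/- mice it was at least 16.6-fold lower, and 0.539% of all genes were that far down. The bound of −4.05 on the log2 scale became −1.53 with normexp and −3.20 without scaling. With vehicle it was 2.03-fold lower in *Pla2g3*-/- (log2 ratio −1.02 ± 0.21), just past 2-fold, a value that became −0.97 with scaling by the median and −0.69 with normexp background correction. After AOM it was at least 1.83-fold lower in *Pla2g3*-/- mice, a bound of −0.87 on the log2 scale that became −0.18 with normexp.

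The summed markers of some other tissues were, like *Pla2g4c*, lower on both AOM arrays than on both vehicle arrays. Between genotypes these sums went the other way from *Pla2g4c* after AOM, as did the adipocyte sum with vehicle. The summed level of 8 adipocyte markers was 19.7 and 40.5 with vehicle and 2.32 and 7.96 after AOM, for *Pla2g3*+/+ and *Pla2g3*-/-, and that of 10 pancreatic acinar markers was 32.3, 32.9, 2.51 and 6.76. Most of the acinar sum came from *Cela1* and *Clps*, at 1654% and 1534% of the 75th percentile in *Pla2g3*+/+ and 1316% and 1019% in *Pla2g3*-/- mice with vehicle, while the other 8 acinar markers were all over 2-fold higher in *Pla2g3*-/- with vehicle. *Lep* was not well above background on the *Pla2g3*-/- vehicle array or on either AOM array. Goblet cell markers, 7 in all, summed to 1498, 1414, 116 and 585. Their part in the *Pla2g4c* values was not tested.

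*Pla2g4d*, *Pla2g4e* and *Pla2g4f* lie side by side on chromosome 2, with *Pla2g4b* further along it, and *Pla2g4d* is best known from keratinocytes. The *Pla2g4d* level was 0.76%, 0.534% and 0.583% on the arrays of vehicle-treated *Pla2g3*+/+, vehicle-treated *Pla2g3*-/- and AOM-treated *Pla2g3*+/+ mice, none of them well above background. On the array of AOM-treated *Pla2g3*-/- mice it was 2.22%, a signal of 25.9 where the lowest signal called above background was 17.1. It was thus detected on that array alone, at least 1.77-fold higher than in AOM-treated *Pla2g3*+/+ mice, and 18.5% of all genes were that far up. That bound, 0.82 on the log2 scale, became 0.21 with normexp background correction. No fold against vehicle could be given in *Pla2g3*-/- mice. *Pla2g4e*, which makes N-acyl phospholipids by acyl transfer, stayed between 0.347% and 0.64% and was not well above background on any array, so it has no ratio.

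*Pla2g4f* had a level of 20.3% in *Pla2g3*+/+ and 14.3% in *Pla2g3*-/- with vehicle, and of 12.5% and 75.1% after AOM. The array of AOM-treated *Pla2g3*-/- mice stood alone above the others. After AOM it was 6.03-fold higher in *Pla2g3*-/- than in *Pla2g3*+/+ mice (log2 ratio 2.59 ± 0.21), and 3.32% of all genes were at least as far up. Against vehicle it was 5.24-fold higher in *Pla2g3*-/- mice (2.39 ± 0.21), where 0.684% of all genes were as far up, and this ratio was 1.72 with normexp and 3.24 without scaling. With vehicle the ratio of *Pla2g3*-/- over *Pla2g3*+/+ was the other way, −0.50 ± 0.21, and −0.30 with normexp. In *Pla2g3*+/+ mice AOM over vehicle gave −0.70 after scaling and 0.32 without it. The difference after AOM was over 2-fold in all 10 settings that recompute it, between 1.89 and 2.67 on the log2 scale.

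**Figure D2:**
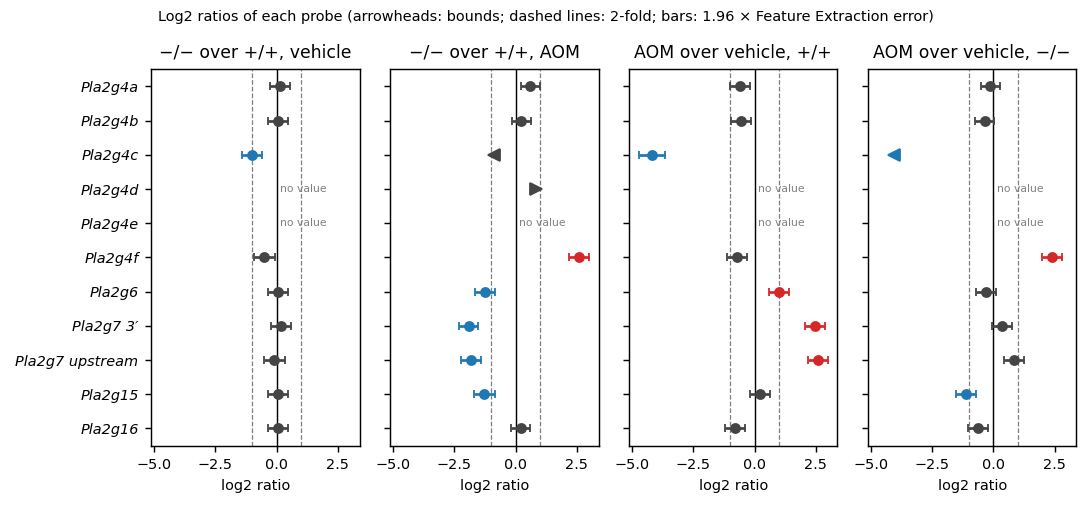
Log2 ratio of each probe in the 4 comparisons of scaled levels, with bars of 1.96 times the Feature Extraction error, arrowheads for bounds and dashed lines at 2-fold. Points past 2-fold are red (higher) or blue (lower). Only *Pla2g4c* reached 2-fold with vehicle, and *Pla2g4f* lay at 2.59 after AOM. Without scaling, the AOM over vehicle ratios of *Pla2g4a*, *Pla2g4b*, *Pla2g4f* and *Pla2g16* in *Pla2g3*+/+ mice and of *Pla2g4a*, *Pla2g4b*, *Pla2g6* and *Pla2g16* in *Pla2g3*-/- mice turn from below 0 to above 0.

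The neighbors of these genes on chromosome 2 were set beside them. Outside the group IV genes, 8 genes with a value lay within 200 kb of a *Pla2g4b*, *Pla2g4d*, *Pla2g4e* or *Pla2g4f* probe, and their log2 ratios of *Pla2g3*-/- over *Pla2g3*+/+ after AOM ran from −0.34 for *Vps39*, a vesicle-tethering protein 17.0 kb from the *Pla2g4f* probe, to 0.93 for *Mapkbp1*. *Ganc*, a glucosidase gene, gave 0.91 and *Tmem87a* gave 0.33. None of them was past 2-fold in this comparison. *Pla2g4d*, 34.7 kb from the *Pla2g4f* probe, was at least 0.82, a bound that cannot place it within or above the range of these neighbors. *Pla2g4d* gave 1.93 with no filter on dim probes, but 0.69 after quantile normalization, 0.66 without scaling and 0.21 with normexp background correction. *Pla2g4f* lay above all of the neighbors with a value.

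**Figure D3:**
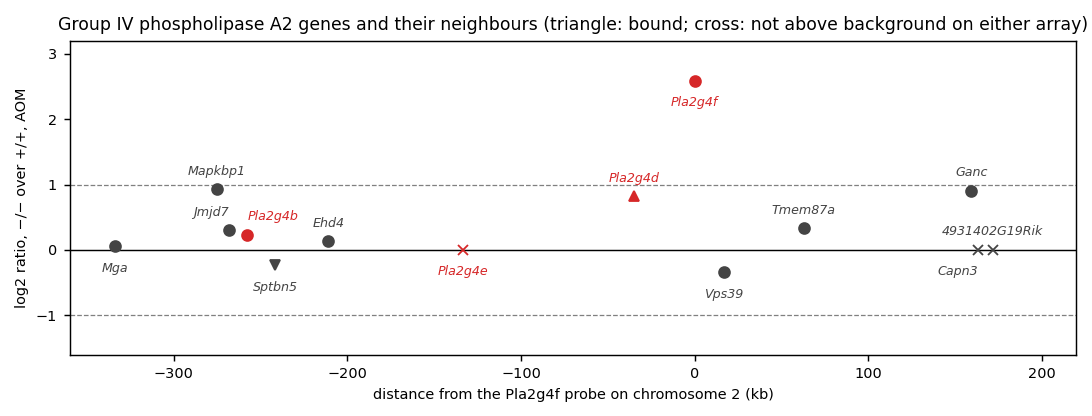
Log2 ratio of *Pla2g3*-/- over *Pla2g3*+/+ after AOM for group IV genes (red) and neighboring genes (gray) on chromosome 2, against the distance in kb from the *Pla2g4f* probe. Triangles are bounds that point away from 0, crosses mark genes not above background on either array, and dashed lines mark 2-fold. *Pla2g4f* at 2.59 was the one gene plotted past 2-fold, and the measured neighbors lay between −0.34 and 0.93. *Pla2g4d* is a bound, at least 0.82.

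Of the squamous epithelium markers, *Krt5* was high on the array where *Pla2g4f* was highest and *Pla2g4d* was detected. This basal keratin had a signal of 36.2 and 33.4 with vehicle, 34.8 in AOM-treated *Pla2g3*+/+ mice and 17850 in AOM-treated *Pla2g3*-/- mice. *Krt14* did not share this pattern and was high on both AOM arrays. Its signal was 72.5 and 44.6 with vehicle and 2035 and 2913 after AOM, for *Pla2g3*+/+ and *Pla2g3*-/-. *Dsg3* was not well above background on either AOM array. Of the 10 markers, 7 had a value for *Pla2g3*-/- over *Pla2g3*+/+ after AOM, 1 was over 2-fold higher (*Krt5*), 1 over 2-fold lower (*Krt4*) and 5 lay between 0.18 and 0.87, with a median of 0.48. Their summed level was 6.47, 5.79, 6.83 and 24.1 on the 4 arrays, and *Krt1* and *Ivl* were below background on all of them. *Lor* and *Krt10*, which like them mark the upper layers of the epidermis, were detected on all 4 arrays, with *Lor* signals of 124 and 92.2 with vehicle and 463 and 755 after AOM, for *Pla2g3*+/+ and *Pla2g3*-/-. Smooth muscle markers were also higher in *Pla2g3*-/- after AOM, 10 of 10 past 2-fold with a median of 4.15. The part of either in the *Pla2g4d* and *Pla2g4f* values was not tested.

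The promoters are shown because *Pla2g4f* was highest, and its neighbor *Pla2g4d* alone detected, on the array of AOM-treated *Pla2g3*-/- mice. The *Pla2g4d* signal there was near background, at 25.9 where the lowest detected signal was 17.1. Each line holds the 250 bases before the RefSeq start on GRCm38.p6, on the gene's own strand (−), from chr2:120289070-120289319 and chr2:120314166-120314415. Capitals mark TATAAA, read on either strand.
*Pla2g4d*: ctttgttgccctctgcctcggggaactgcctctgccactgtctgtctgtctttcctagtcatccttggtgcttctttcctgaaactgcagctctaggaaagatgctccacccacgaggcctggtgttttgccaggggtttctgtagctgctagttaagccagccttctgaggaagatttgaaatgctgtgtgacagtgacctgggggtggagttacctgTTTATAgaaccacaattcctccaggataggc
*Pla2g4f*: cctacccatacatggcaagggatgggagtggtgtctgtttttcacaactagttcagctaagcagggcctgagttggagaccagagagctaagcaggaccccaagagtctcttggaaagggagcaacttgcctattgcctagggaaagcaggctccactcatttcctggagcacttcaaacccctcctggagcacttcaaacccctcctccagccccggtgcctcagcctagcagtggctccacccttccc
RefSeq promoters matched 9 of the 10 genes, in 12 windows. In the *Pla2g4d* window TATAAA was found on the opposite strand only. The gene's own strand reads TTTATA there, beginning 31 bases before the start. TATAAA was also found in 1 of 2 *Pla2g4a* windows, against 12.4% of all 32851 windows of this length, read on either strand. TGANTCA, the letters of an AP-1 motif, was found for *Pla2g16* only (6.75% of all windows), and CACGTG for none (6.02%). CpG pairs numbered 16 for *Pla2g15*, 14 for *Pla2g7* and 12 for *Pla2g6*, but 0 in both windows of *Pla2g4c*, 1 for *Pla2g4f* and 2 for *Pla2g4d*.

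*Pla2g6*, the calcium-independent enzyme of group VI, acts in membrane remodeling. Its level was 20.9% in *Pla2g3*+/+ and 21.8% in *Pla2g3*-/- with vehicle, and 41.9% and 17.6% after AOM. The array of AOM-treated *Pla2g3*+/+ mice stood above the other 3, which lay close together. After AOM it was 2.37-fold lower in *Pla2g3*-/- mice (log2 ratio −1.25 ± 0.21), as were 9.97% of all genes, and the value was −0.81 with normexp background correction. In *Pla2g3*+/+ mice it was 2.01-fold higher after AOM (1.01 ± 0.21), which lay at the threshold and was 0.98 with scaling by the median and 2.03 without scaling. In *Pla2g3*-/- mice AOM over vehicle gave −0.30 ± 0.21 after scaling and 0.54 without it.

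*Pla2g7* encodes PAF acetylhydrolase, and its probes lie far apart on the transcript. The 3′ probe, which begins at position 1796 (chr17:43749032-43749091, mm9) and stands for the gene, gave 72.5% and 82.7% with vehicle and 398% and 105% after AOM. The upstream probe, shown above, gave 15.1% and 14.2% with vehicle and 90.4% and 25.4% after AOM. On both probes the array of AOM-treated *Pla2g3*+/+ mice was far above the others. In *Pla2g3*+/+ mice AOM over vehicle was 5.48-fold higher (log2 ratio 2.45 ± 0.20) on the 3′ probe and 5.98-fold higher (2.58 ± 0.21) on the upstream probe. Without scaling the 3′ probe gave 3.47. After AOM it was 3.77-fold lower in *Pla2g3*-/- mice on the 3′ probe (−1.92 ± 0.20) and 3.56-fold lower on the upstream probe (−1.83 ± 0.21). With vehicle the ratios of *Pla2g3*-/- over *Pla2g3*+/+ were 0.19 and −0.09, both within the error of the spots. In *Pla2g3*-/- mice AOM over vehicle differed between the probes, with 0.35 on the 3′ probe and 0.84 on the upstream probe, neither past 2-fold.

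Macrophage markers went the same way as *Pla2g7* in the comparisons that use the AOM-treated *Pla2g3*+/+ array, but not in the AOM over vehicle comparison in *Pla2g3*-/- mice. Their summed level was 15.1 and 18.1 with vehicle and 35.3 and 14.2 after AOM, for *Pla2g3*+/+ and *Pla2g3*-/-. Of 9 markers with a value, 8 were over 2-fold lower in *Pla2g3*-/- after AOM, with a median log2 ratio of −1.40, and 8 were over 2-fold higher after AOM in *Pla2g3*+/+ mice, with a median of 1.30. *Mpeg1* gave −2.04 and 2.31 in these comparisons, and *Csf1r* gave −1.11 and 0.58. *Mrc1* was the exception after AOM, at 0.38 in *Pla2g3*-/- over *Pla2g3*+/+, and *Cd163* was not well above background on any array. For AOM over vehicle in *Pla2g3*-/- mice the median of the markers was −0.34, with 1 over 2-fold higher, 1 over 2-fold lower and 7 of 9 below 0, where the *Pla2g7* probes gave 0.35 and 0.84. Their part in the *Pla2g7* values was not tested.

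**Figure D4:**
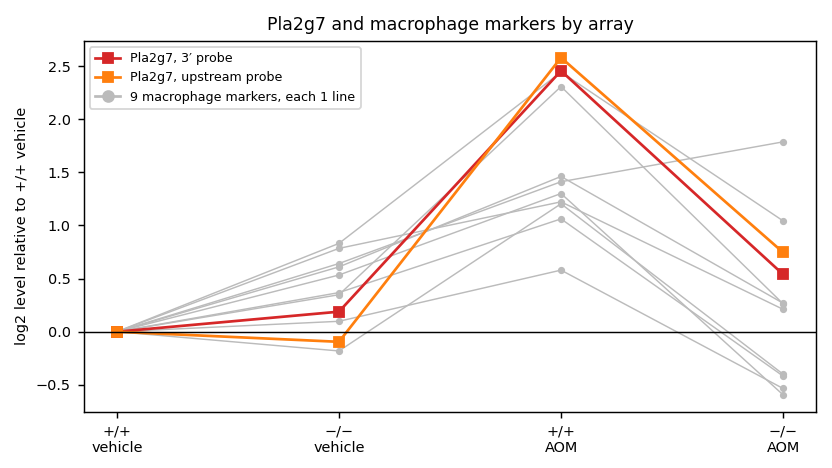
Log2 level of both *Pla2g7* probes (red, orange) and of 9 macrophage markers (gray, 1 line each) on the 4 arrays, relative to the array of vehicle-treated *Pla2g3*+/+ mice. All lines are highest on the *Pla2g3*+/+ AOM array except that of *Mrc1*, which is higher in *Pla2g3*-/- after AOM, and both *Pla2g7* lines drop to below 1 on the *Pla2g3*-/- AOM array.

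*Pla2g15*, the lysosomal phospholipase A2, had a level of 25.3% in *Pla2g3*+/+ and 26.5% in *Pla2g3*-/- with vehicle, and of 29.5% and 12.2% after AOM. Here the array of AOM-treated *Pla2g3*-/- mice was the low one. After AOM it was 2.41-fold lower in *Pla2g3*-/- than in *Pla2g3*+/+ mice (log2 ratio −1.27 ± 0.21), and −0.75 with normexp background correction. In *Pla2g3*-/- mice it was 2.16-fold lower after AOM than with vehicle (−1.11 ± 0.21), but −0.27 without scaling. In *Pla2g3*+/+ mice AOM over vehicle gave 0.22 ± 0.21 after scaling and 1.24 without it. Of 12 other lysosomal genes, 1 was higher (15.1% of all genes) and 1 lower (12.9%) by over 2-fold in *Pla2g3*-/- after AOM. The median of the list was 0.10.

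*Pla2g16* gave 207% and 215% with vehicle and 120.0% and 138% after AOM. Both AOM arrays were below both vehicle arrays after scaling, with log2 ratios of −0.79 ± 0.20 in *Pla2g3*+/+ and −0.64 ± 0.20 in *Pla2g3*-/- mice, but these were 0.23 and 0.21 without scaling. The ratios of *Pla2g3*-/- over *Pla2g3*+/+ were 0.05 with vehicle and 0.20 after AOM, within 1.96 times the error of the spots. The *AK135063* probe, which shares 26 bases with it, gave −0.71 and −0.37 for AOM over vehicle in *Pla2g3*+/+ and *Pla2g3*-/- mice, and the *Gm4858* probe, which shares 22, gave −0.70 and −0.38. The part of the shared bases in the *Pla2g16* values was not tested.

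**Figure D5:**
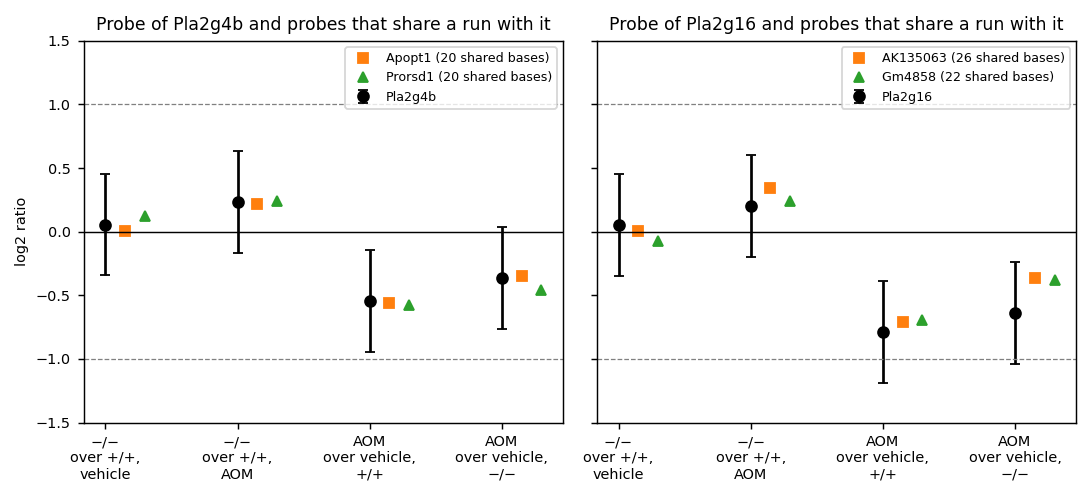
Log2 ratios in the 4 comparisons for the probes of *Pla2g4b* and *Pla2g16* (black, with bars of 1.96 times the Feature Extraction error) and for the probes of other genes that share a run with them (squares and triangles). The other probes lay within the bars in all 4 comparisons. Without scaling, the AOM over vehicle ratios of both genes lie above 0.

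Genes that act before and after these enzymes were taken from lists set out by their roles. Of 7 regulators of cytosolic phospholipase A2, 0 were past 2-fold for *Pla2g3*-/- over *Pla2g3*+/+ with either treatment. Of all genes, 3.24% were with vehicle and 28.0% after AOM. In *Pla2g3*+/+ mice after AOM, *Anxa1* (annexin A1, an inhibitor, 1.25) and the receptor *Pla2r1* (1.62) were higher and *S100a10* (−1.14) and the kinase *Mapk3* (−1.01) lower. Without scaling the signals of both were nearly equal, 24338 with vehicle and 22466 after AOM for *S100a10*, and 10850.3 and 10896 for *Mapk3*. Of 14 enzymes that turn arachidonate into mediators, 5 were past 2-fold for *Pla2g3*-/- over *Pla2g3*+/+ after AOM, where 28.0% of all genes were. Of these, 2 were over 2-fold higher in *Pla2g3*-/- after AOM, the prostacyclin synthase *Ptgis* (2.65) and the prostaglandin-degrading *Hpgd* (2.63).

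In the same comparison 3 were lower, the inducible cyclooxygenase *Ptgs2* (−3.51), the prostaglandin D synthase *Ptgds* (−3.11) and the thromboxane synthase *Tbxas1* (−1.94). The *Ptgs2* signal was 61.6 and 55.4 with vehicle and 1740.3 and 136 after AOM, so that it was high on the *Pla2g3*+/+ AOM array alone, as *Pla2g7* was. With vehicle, where 3.24% of all genes were past 2-fold, 1 of the 14 was, the hematopoietic prostaglandin D synthase *Hpgds* (−1.18). The median of this list was 0.07 with vehicle and −0.19 after AOM.

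Other genes of PAF metabolism numbered 7. After AOM, *Lpcat2*, which makes PAF (1.45), and *Pafah2*, an intracellular PAF acetylhydrolase (1.07), were higher in *Pla2g3*-/- than in *Pla2g3*+/+ mice, and the PAF receptor *Ptafr* was lower (−1.71), with a median of 0.37. *Pafah1b1*, *Pafah1b2* and *Pafah1b3*, the subunits of the cytosolic PAF acetylhydrolase, gave −0.18, −0.33 and 0.37. Of 4 measured genes that return arachidonate to phospholipids, only *Acsl4* was past 2-fold (−1.39), against 28.0% of all genes, and the median was −0.15.

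Of 12 related intracellular lipases, 10 had a value for *Pla2g3*-/- over *Pla2g3*+/+ after AOM, with a median of 0.49. Of these 10, 3 were over 2-fold higher, where 15.1% of all genes were. The 3 were *Hrasls*, of the same family as *Pla2g16* (at least 2.99), *Prdx6*, a peroxiredoxin with phospholipase activity (2.13), and *Plbd1* (1.61). None of the 7 regulators, 7 PAF genes, 4 reacylation genes, 12 lysosomal genes or 11 related lipases with a value was past 2-fold with vehicle. Of all genes, 3.24% were.

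Genes with the most similar pattern were sought for the 3 members with the widest range among those detected on all 4 arrays, by the distance between log2 levels centered over the 4 arrays, among 14798 genes. For *Pla2g4f* they were *Apob* (0.16), *Mybpc1* (0.28) and *Fmo4* (0.31). For *Pla2g7* they were *Tnfaip2* (0.01), *Afap1l1* (0.04) and *Loxl2* (0.08), and for *Pla2g15* they were *Slfn8* (0.04), *Pole2* (0.07) and *Srm* (0.07). With 4 arrays, close matches are easy to find, and no test was made.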

How the data were processed

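The authors deposited, per the file headers, the intensity of each spot from Agilent Feature Extraction 11.5.1.1, with the background subtracted, detrended within the array, replaced by a surrogate where low, and not scaled between arrays. For each spot the authors also deposited a p-value, from the test of the software against background, and detection was read from the flag "well above background". They further deposited a table of processed values, each a deposited ratio, the intensity over the 75th percentile of its array. Here control spots and outlier spots were left out, log2 intensities of replicate spots were averaged (median SD between spots 0.066 to 0.079 on the log2 scale), and the 75th percentile of the array was subtracted. Between 64.8% and 69.4% of spots were well above background and 0 were saturated.

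Groups came from the deposited labels. The brightest probe over all arrays stood for a gene, and every probe of a member is reported. Of 39423 probes, 31367 were named, for 22368 genes, through a RefSeq table of GRCm38.p6, and promoters are from RefSeq on that assembly. A dim signal opposite a detected one was raised to the faintest detected signal of its own array (10.7 to 17.1) or to its own value if higher. The threshold was 2-fold and no test was possible. Only the ratios and the 2-fold calls were tested on simulated data. The noise there was the spread between replicate spots, which holds no variation between mice. The members and lists were chosen with earlier results of these data known. Named were all members, list genes past 2-fold or most abundant in their list, the nearest patterns of 3 members, and *Pla2g3*. The genes that share a run with a probe and the chromosome 2 neighbors were named outside that rule, after their values were seen. So were the list genes *Csf1r*, *Mrc1*, *Cd163*, *Mpeg1*, *Lep*, *Krt1*, *Ivl*, *Lor*, *Krt10*, *Krt14*, *Dsg3* and those of the cytosolic PAF acetylhydrolase. The lysosomal list is given by its counts and median, and its genes past 2-fold are not reported here by name.

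The alternatives were no scaling, the median or quantiles as the scale, normexp background correction (offset 50) with quantiles in limma 3.58.1 and R 4.3.3, 3 treatments of dim probes, the mean or the dimmest probe of a gene, the deposited table, and 1.5-fold and 4-fold thresholds. Computing used Python 3.11.15, pandas 2.3.3, numpy 2.4.6 and matplotlib 3.10.9.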

Additional observations from a re-analysis of the deposited data

Results flagged for a closer look

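*Pla2g4f* moved in opposite directions under the same contrast. The log2 ratio of *Pla2g3*-/- over *Pla2g3*+/+ was −0.50 with vehicle and 2.59 after AOM, a difference of 3.09. Equally, AOM over vehicle was −0.70 in *Pla2g3*+/+ and 2.39 in *Pla2g3*-/- mice, and this pair differs by the same 3.09 because both come from the same 4 arrays. With 1 array per group the difference was not tested, and without scaling the AOM ratios were 0.32 and 3.24, both above 0. With normexp background correction the ratio of *Pla2g3*-/- over *Pla2g3*+/+ with vehicle was −0.30, nearer to 0.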

How the results depend on the processing

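Counts of members past 2-fold came mostly within 1.5 times the main count. With vehicle the count of 1 became 0 with scaling by the median, with normexp background correction and at 4-fold. For *Pla2g3*-/- over *Pla2g3*+/+ after AOM the count of 4 became 2 with normexp, 7 at 1.5-fold and 1 at 4-fold, and for AOM over vehicle in *Pla2g3*+/+ mice 3 became 6 at 1.5-fold. Of 11 calls past 2-fold, 5 were lost under some scaling or background correction (*Pla2g4c* with vehicle, *Pla2g6* and *Pla2g15* after AOM, *Pla2g6* in *Pla2g3*+/+ and *Pla2g15* in *Pla2g3*-/- mice), as given above. Over all genes, normexp lowered the share past 2-fold to 1.2% with vehicle and 16.3% after AOM for *Pla2g3*-/- over *Pla2g3*+/+, and to 10.5% for AOM over vehicle in *Pla2g3*-/- mice, and the counts in *Pla2g3*+/+ mice from 2612 higher and 3872 lower to 1764 and 1715. Use of probes above background on both arrays gave 1.71% with vehicle, and no filter on dim probes gave 6.18%. At 1.5-fold 7.53%, 46.1%, 59.8% and 49.2% of all genes were past the threshold in the 4 comparisons, in the order of the report, and at 4-fold 1.1%, 10.6%, 12.2% and 4.48%. Without scaling the median log2 ratio of all genes for AOM over vehicle was 0.87 in *Pla2g3*+/+ and 0.76 in *Pla2g3*-/- mice, the share of calls that were higher went from 40.3% to 86.3% and from 39.0% to 91.1% (50.7% and 50.6% with normexp), and the share of genes past 2-fold in *Pla2g3*-/- mice from 24.8% to 41.8%. For *Pla2g3*-/- over *Pla2g3*+/+ after AOM, *Pla2g4c* and *Pla2g4d* gave −2.66 and 1.93 with no filter on dim probes, but −0.18 and 0.21 with normexp. Without scaling, *Pla2g4c* in this comparison (−1.04) also passed 2-fold. So did the AOM over vehicle ratios of *Pla2g15* in *Pla2g3*+/+ mice (1.24) and *Pla2g7* in *Pla2g3*-/- mice (1.20). The cause of these shifts was not tested. No paired analysis was possible because each group has 1 array, which also leaves no replicate to leave out, and the number of arrays limits the precision.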

Other observations

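Other cell type lists gave these values for *Pla2g3*-/- over *Pla2g3*+/+ after AOM. Of 10 Wnt target and tumor genes 9 were over 2-fold lower, with a median log2 ratio of −2.78, and their summed level in multiples of the 75th percentile was 7.69 and 7.40 with vehicle and 73.1 and 9.11 after AOM. Of 8 mast cell markers 6 were lower, with a median of −2.52, and of 9 neutrophil markers with a value 5 were lower and 2 higher, with a median of −3.23. Of 7 general epithelial markers 0 were past 2-fold, with a median of 0.66, while 7 of 7 goblet cell markers and 7 of 9 colonocyte markers were higher, with medians of 2.13 and 2.07. With vehicle, 8 of 10 pancreatic acinar markers were over 2-fold higher on the array labeled *Pla2g3*-/-, against 1.92% of all genes, with a median of 4.26.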
